A study of Mus musculus with 10 samples.

Results

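The genes described here are the cytochrome P450 genes of families 1 to 3, the families that act mainly on drugs, pollutants, steroids and fatty acids. A member is a gene whose symbol starts with Cyp1, Cyp2 or Cyp3 followed by a letter and that is the only symbol of its row in the table, with the Cyp2b genes and the pseudogenes ending in -ps left out, which removed 6 genes (Cyp2b9, Cyp2b10, Cyp2b13, Cyp2b19, Cyp2b23 and Cyp2d37-ps). The rule used names only, no measured value, and found 48 genes of the 19938 genes with a row of their own. Each of the 48 had exactly 1 such row. All 48 keep their symbol in the RefSeq annotation of mouse (GRCm38.p6), which lists 1 of them, Cyp2d13, as a transcribed pseudogene although its symbol does not say so. A further 5 rows carry several symbols, 1 or more of them a P450 of these families, and are described apart.

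Liver RNA was profiled in 10 male C57BL/6J mice, 8 weeks old when they received an adenovirus through the tail vein and studied in the fed state 3 weeks later. The virus encoded Phf2, a histone demethylase, in 5 mice (Phf2) and the fluorescent protein GFP in 5 control mice (GFP), so that both groups carried an adenovirus. The promoter of the viral construct was not named in the sources read. Each liver was measured on 1 Affymetrix Gene ST array, and values are log2 RMA values, on which a difference of 1 is a doubling. The comparison asks how forced expression of Phf2 in the liver changes its transcripts.

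P450 enzymes are heme proteins of the endoplasmic reticulum that insert an oxygen atom into their substrate with electrons passed on by P450 reductase and cytochrome b5. In the liver they sit in hepatocytes, many of them in the cells around the central vein. Families 1, 2 and 3 are switched on by sensors of foreign compounds, the aryl hydrocarbon receptor AhR for family 1 and the nuclear receptors CAR and PXR for much of families 2 and 3, and several mouse members differ between the sexes under the control of growth hormone. Neighbouring genes of a subfamily lie in tandem in the genome and are often very alike in sequence, so that a probe of an array can read more than 1 of them.

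Before the members, the arrays themselves. Arrays correlated with each other at 0.978 to 0.9932 over all rows, array medians lay between 5.06 and 5.18, and no pair held identical values. The row of Phf2 read 6.27 to 6.58 on the Phf2 arrays and 6.32 to 6.54 on the GFP arrays (log2 fold change of -0.05, adjusted p = 0.751 from limma). The sources do not say whether its probes read the viral transcript, and the labels are not checked by it. Markers of hepatocytes averaged 12.2 to 12.4 on the Phf2 arrays and 12.4 to 12.5 on the GFP arrays, and 3 of 7 passed the test as lower. Markers of T and NK cells averaged 6.01 to 6.87 on the Phf2 arrays and 5.12 to 5.53 on the GFP arrays, and 7 of 8 passed as higher. Over all genes, 4.24% passed as lower and 5.43% as higher. Markers of pancreatic acinar cells ran from 6.23 to 10.8 on the Phf2 arrays and from 6.40 to 12.3 on the GFP arrays, and none of 7 passed in either direction. Their mean was above 10 on 3 arrays, Phf2 replicates 2 (10.8) and 3 (10.1) and GFP replicate 1 (12.3).

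Genes were compared with limma over all 19938 genes, and a gene was called where the p-value adjusted by the Benjamini-Hochberg method was under 0.05. Of the 48 members, 15 were called, 4 as higher and 11 as lower. The 4 that rose were Cyp2a22, Cyp2c39, Cyp2c38 and Cyp1b1. The 11 that fell were Cyp2c23, Cyp1a2, Cyp2c54, Cyp2d13, Cyp2j9, Cyp2c37, Cyp2c68, Cyp3a13, Cyp2c50, Cyp2f2 and Cyp2d26. The 4 higher members are 8.33% of the list, beside the 5.43% of all genes called higher, and the 11 lower ones are 22.9%, against 4.24% of all genes called lower. The median log2 fold change of the members was -0.153, beside -0.0149 over all genes, and 35 of 48 (72.9%) had a negative one, beside 54.7% of all genes. The 5 Phf2 and the 5 GFP arrays did not overlap for 13 members (27.1%), which happened in 9.08% of all genes. At an unadjusted p under 0.05 there were 23 members.

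**Figure D1:**
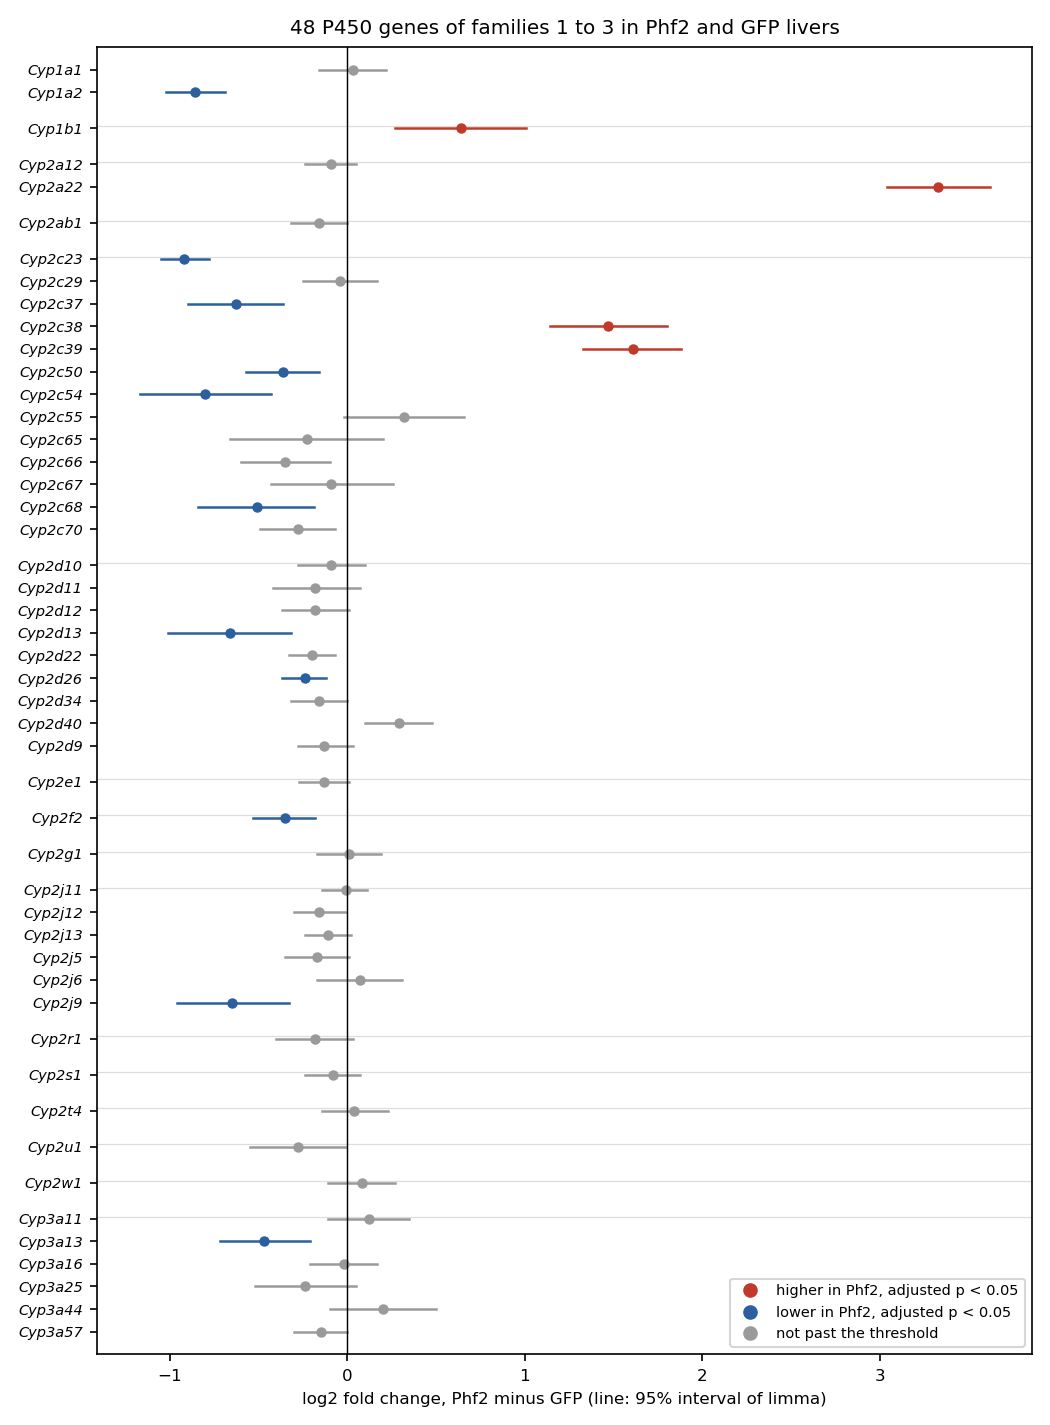
Log2 fold change (Phf2 minus GFP, horizontal axis) of the 48 P450 members, grouped by subfamily down the page, with lines for the 95% interval from limma. Red marks the 4 higher members, led by Cyp2a22 at 3.33, and blue the 11 lower ones, which lie between -0.92 and -0.24.

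Most calls were among members with brighter rows. Of the 48, 17 had a mean over the 10 arrays below the median of all genes, and 1 of these (Cyp1b1) was called. Of the 31 above it, 3 were called higher and 11 lower, 9.68% and 35.5%, beside 8.89% and 7.67% of all genes above that median. The 17 dim members were Cyp1a1, Cyp1b1, Cyp2ab1, Cyp2c65, Cyp2c66, Cyp2d11, Cyp2d12, Cyp2d34, Cyp2g1, Cyp2j11, Cyp2j12, Cyp2j13, Cyp2s1, Cyp2t4, Cyp2w1, Cyp3a16 and Cyp3a57.

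Family 1 holds the genes of the AhR response, and of its 3 members Cyp1a2 was lower, Cyp1b1 was higher and Cyp1a1 did not pass. Cyp1a2, the liver enzyme that oxidizes caffeine and aromatic amines, read 10.04, 9.83, 9.93, 9.79 and 10 on the Phf2 arrays and 10.90, 10.80, 10.71, 10.86 and 10.60 on the GFP arrays. Every Phf2 array lay below every GFP array. The log2 fold change was -0.86 (standard error, SE, of 0.07, adjusted p = 2.41e-05 from limma), so that the level in GFP livers was 1.81 times that in Phf2 livers. Since bulk RNA was measured, fewer cells of a type and less RNA per cell cannot be told apart here or for any lower member below. Cyp1a1, its inducible neighbour on chromosome 9, read 3.65, 3.71, 3.76, 3.76 and 3.76 on the Phf2 arrays and 3.72, 3.83, 3.51, 3.94 and 3.47 on the GFP arrays. The groups overlapped, with a log2 fold change of 0.03 (95% interval -0.16 to 0.22, adjusted p = 0.890 from limma) for this dim row. Cyp1b1, an AhR target better known outside hepatocytes, read 5.22, 5.38, 5.36, 5.91 and 4.76 on the Phf2 arrays and 4.99, 4.56, 4.64, 4.73 and 4.50 on the GFP arrays. It rose by 0.64 on the log2 scale (SE 0.17, adjusted p = 0.0322 from limma), but Phf2 replicate 5 lay inside the GFP range, and the call was lost without any 1 of 7 arrays. Its p was then 0.0745, 0.0647 and 0.0538 without Phf2 replicates 2, 3 and 4, and 0.0754, 0.0597, 0.0585 and 0.0747 without GFP replicates 2, 3, 4 and 5. The values of Cyp1b1 were highest on Phf2 replicate 4. That array also had the highest means of the T and NK cell markers (6.87) and of the B cell markers (4.97). The other cell type lists peaked on other arrays, those of stellate cells and sinusoidal endothelium on Phf2 replicate 3 (6.65 and 7.43). The part of any of these cells in Cyp1b1 was not tested.

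The promoters of the 2 Cyp1a genes are shown because 1 of these neighbours was called and the other was not. The sequences are RefSeq windows of GRCm38.p6, from 250 bases before to 50 bases after the start site and written in the direction of the gene, with capitals for any of 6 motifs searched on both strands. In these 2 windows the capitals are TATAAA, the letters of the TATA box that places the start site, and GCGTG, the core of the xenobiotic response element bound by AhR.
Cyp1a2 (chr9:57683606-57683905, minus strand): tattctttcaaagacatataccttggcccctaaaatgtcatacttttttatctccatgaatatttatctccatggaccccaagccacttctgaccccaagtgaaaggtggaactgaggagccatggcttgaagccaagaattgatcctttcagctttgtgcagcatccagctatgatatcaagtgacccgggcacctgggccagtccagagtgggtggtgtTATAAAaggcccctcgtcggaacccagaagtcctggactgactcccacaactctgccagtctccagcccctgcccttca
Cyp1a1 (chr9:57697363-57697662, plus strand): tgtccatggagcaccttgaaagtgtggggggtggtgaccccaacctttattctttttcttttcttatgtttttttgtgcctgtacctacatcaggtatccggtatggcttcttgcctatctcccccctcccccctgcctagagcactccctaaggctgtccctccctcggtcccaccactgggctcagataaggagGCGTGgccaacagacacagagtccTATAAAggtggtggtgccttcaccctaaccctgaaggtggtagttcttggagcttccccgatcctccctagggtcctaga
Both windows hold TATAAA close to the start site, at position -29 in Cyp1a2 and -30 in Cyp1a1, counted from that site. GCGTG occurred once in the Cyp1a1 window, at position -54, and not in the Cyp1a2 window. It is a common run of letters, present in 32.4% of 32851 promoter windows, and a match is no more than a match of letters. Cyp1b1 had 1 match as well.

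The largest change of any member was in Cyp2a22, which lies between Cyp2a5 and Cyp2a12 on chromosome 7. It read 8.14, 7.98, 8.37, 8.44 and 8.05 on the Phf2 arrays and 4.91, 4.94, 4.54, 4.66 and 5.26 on the GFP arrays. The lowest Phf2 array lay far above the highest GFP array, and the log2 fold change was 3.33 (SE 0.13, adjusted p = 6.81e-08 from limma), a 10.1-fold difference. Cyp2a12, a steroid hydroxylase of liver, averaged 10.94 ± 0.12 on the Phf2 arrays and 11.03 ± 0.05 on the GFP arrays (SD, n = 5 each). The groups overlapped, and the 95% interval of its log2 fold change of -0.09 ran from -0.24 to 0.05 (adjusted p = 0.472 from limma). The other Cyp2a genes, Cyp2a5, the coumarin hydroxylase of mouse liver, and Cyp2a4, a testosterone hydroxylase higher in females, share 1 row and have none of their own. That row read 10.91, 11.03, 11.31, 10.88 and 10.95 on the Phf2 arrays and 10.45, 10.07, 10.07, 10.07 and 10.46 on the GFP arrays. Every Phf2 array lay above every GFP array, and the log2 fold change was 0.79 (SE 0.11, adjusted p = 0.00345 from limma over all 35556 rows). Which of the 2 genes it reflects cannot be told apart.

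The start regions of Cyp2a22 and Cyp2a12 are shown because they are alike while 1 of the transcripts was called and the other was not. The windows were aligned over their whole length, 84% of the aligned columns were identical, and capitals mark the bases that differ from or have no partner in the other window.
Cyp2a22 (chr7:26939337-26939636, minus strand): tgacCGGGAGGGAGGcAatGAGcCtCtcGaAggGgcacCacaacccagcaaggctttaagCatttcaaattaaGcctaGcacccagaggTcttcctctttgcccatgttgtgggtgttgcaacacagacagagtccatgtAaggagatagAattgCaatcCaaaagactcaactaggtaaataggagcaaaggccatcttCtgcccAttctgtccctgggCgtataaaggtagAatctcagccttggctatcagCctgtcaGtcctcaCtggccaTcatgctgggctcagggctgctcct
Cyp2a12 (chr7:27028840-27029139, plus strand): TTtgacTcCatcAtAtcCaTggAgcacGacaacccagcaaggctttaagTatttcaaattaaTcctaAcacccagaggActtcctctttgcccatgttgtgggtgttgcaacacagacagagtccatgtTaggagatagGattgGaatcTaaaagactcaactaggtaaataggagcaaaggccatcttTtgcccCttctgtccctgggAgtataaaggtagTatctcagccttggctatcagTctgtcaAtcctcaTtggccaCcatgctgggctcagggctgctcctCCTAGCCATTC
Each window has 37 such bases. TATAAA starts at position -28 in the window of Cyp2a22 and at -39 in that of Cyp2a12, and none of the other 5 motifs was found in either window.

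Cyp2c is the largest subfamily here, with 13 members on chromosome 19, and it held 2 of the 4 higher members and 5 of the 11 lower ones. Its enzymes turn arachidonic acid into signalling lipids and act on drugs and retinoids. Of the 13 members, 2 were called higher, 5 lower, and 6 did not pass the test. Cyp2c39, which hydroxylates retinoic acid, read 7.87, 7.52, 7.62, 7.60 and 8.09 on the Phf2 arrays and 6.17, 5.92, 5.95, 6.14 and 6.49 on the GFP arrays. Its log2 fold change was 1.61 (SE 0.13, adjusted p = 1.30e-05 from limma), a 3.05-fold rise with no overlap of the groups. Cyp2c38, which epoxidizes arachidonic acid, read 9.77, 9.82, 9.91, 9.89 and 10.02 on the Phf2 arrays and 8.28, 7.82, 8.64, 8.47 and 8.85 on the GFP arrays. It rose by 1.47 on the log2 scale (SE 0.15, adjusted p = 9.43e-05 from limma), and the GFP arrays spread wider (SD 0.39) than the Phf2 arrays (SD 0.10). Cyp2c29 is an epoxygenase of liver and, in the gene order of RefSeq, the gene on the other side of Cyp2c39. It read 11.93, 11.92, 11.97, 11.72 and 12.20 on the Phf2 arrays and 11.93, 11.75, 12.03, 12.09 and 12.13 on the GFP arrays. These groups overlapped throughout, with a log2 fold change of -0.04 (95% interval -0.25 to 0.17, adjusted p = 0.861 from limma).

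The promoters of these 3 neighbours are shown because Cyp2c38 and Cyp2c39 rose and Cyp2c29 did not pass the test. RefSeq gives Cyp2c39 a pair of start sites, both shown, and capitals mark TATAAA and the antioxidant response element core TGANNNNGC, read on either strand.
Cyp2c38 (chr19:39463026-39463325, minus strand): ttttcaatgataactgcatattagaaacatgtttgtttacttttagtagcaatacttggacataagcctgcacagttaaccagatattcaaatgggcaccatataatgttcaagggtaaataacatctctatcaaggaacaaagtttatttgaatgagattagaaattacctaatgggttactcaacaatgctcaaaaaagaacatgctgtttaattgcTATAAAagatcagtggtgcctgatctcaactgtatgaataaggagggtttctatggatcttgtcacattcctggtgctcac
Cyp2c39, first start site (chr19:39347096-39347395, plus strand): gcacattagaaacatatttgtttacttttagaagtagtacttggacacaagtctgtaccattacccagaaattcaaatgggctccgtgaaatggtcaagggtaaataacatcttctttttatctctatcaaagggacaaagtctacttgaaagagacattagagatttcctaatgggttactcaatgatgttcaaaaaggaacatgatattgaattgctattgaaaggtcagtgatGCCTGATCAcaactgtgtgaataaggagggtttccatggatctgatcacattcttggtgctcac
Cyp2c39, second start site (chr19:39510572-39510871, plus strand): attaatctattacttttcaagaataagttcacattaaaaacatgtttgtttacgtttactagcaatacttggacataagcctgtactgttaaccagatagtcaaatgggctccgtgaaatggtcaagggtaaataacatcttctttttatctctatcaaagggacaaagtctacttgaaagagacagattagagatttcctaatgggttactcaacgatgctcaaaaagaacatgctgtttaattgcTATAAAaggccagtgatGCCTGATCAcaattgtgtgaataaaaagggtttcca
Cyp2c29 (chr19:39286835-39287134, plus strand): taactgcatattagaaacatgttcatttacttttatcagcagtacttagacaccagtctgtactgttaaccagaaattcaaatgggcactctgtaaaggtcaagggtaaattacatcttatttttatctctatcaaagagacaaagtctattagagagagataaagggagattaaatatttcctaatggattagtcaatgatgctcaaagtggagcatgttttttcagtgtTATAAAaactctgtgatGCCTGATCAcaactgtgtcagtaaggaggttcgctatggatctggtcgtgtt
The Cyp2c38 window was 78.1% identical to the first and 72.9% to the second window of Cyp2c39, and 70.8% identical to that of Cyp2c29. TATAAA starts at position -31 in Cyp2c38, at -19 in Cyp2c29 and at -3 in the second window of Cyp2c39, and was not found in the first. TGANNNNGC matched once in each Cyp2c39 window and once in the Cyp2c29 window, but not in the Cyp2c38 window. This motif of the oxidative stress factor Nrf2 is loose, and 41.3% of all promoter windows hold it. Which start site of Cyp2c39 was used in these livers was not measured.

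Several of the lower Cyp2c members act on arachidonic acid. Cyp2c23, an epoxygenase of arachidonic acid in liver and kidney, read 10.50, 10.41, 10.40, 10.36 and 10.24 on the Phf2 arrays and 11.38, 11.29, 11.32, 11.25 and 11.27 on the GFP arrays. It changed by -0.92 on the log2 scale (SE 0.06, adjusted p = 4.00e-06 from limma), a level 1.89 times as high in GFP livers, and both groups were tight. Cyp2c54, another of them, read 10.20, 9.43, 9.43, 9.51 and 10.30 on the Phf2 arrays and 10.64, 10.42, 10.60, 10.72 and 10.48 on the GFP arrays. It changed by -0.80 on the log2 scale (SE 0.17, adjusted p = 0.0106 from limma), and Phf2 replicates 1 and 5 lay much nearer to the GFP arrays than replicates 2, 3 and 4. Cyp2c37 and Cyp2c50, which neighbour Cyp2c54 on either side, had log2 fold changes of -0.63 (SE 0.12, adjusted p = 0.00657) and -0.36 (SE 0.10, adjusted p = 0.0310 from limma). Cyp2c68 had one of -0.51 (SE 0.15, adjusted p = 0.0488), and its groups overlapped because GFP replicate 2 read 8.45 while the other GFP arrays read 9.10 to 9.18.

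Cyp2c37 and Cyp2c50 are the closest pair of start regions among the lower members that have a window, 86.6% identical, and are shown with capitals where the aligned bases differ or have no partner.
Cyp2c37 (chr19:39992174-39992473, plus strand): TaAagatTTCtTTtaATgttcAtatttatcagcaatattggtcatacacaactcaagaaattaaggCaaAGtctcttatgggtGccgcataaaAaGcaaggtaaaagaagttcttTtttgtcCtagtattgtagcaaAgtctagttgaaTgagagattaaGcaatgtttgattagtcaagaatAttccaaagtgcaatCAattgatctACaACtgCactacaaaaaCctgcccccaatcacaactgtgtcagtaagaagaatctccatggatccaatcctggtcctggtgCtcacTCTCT
Cyp2c50 (chr19:40089429-40089728, plus strand): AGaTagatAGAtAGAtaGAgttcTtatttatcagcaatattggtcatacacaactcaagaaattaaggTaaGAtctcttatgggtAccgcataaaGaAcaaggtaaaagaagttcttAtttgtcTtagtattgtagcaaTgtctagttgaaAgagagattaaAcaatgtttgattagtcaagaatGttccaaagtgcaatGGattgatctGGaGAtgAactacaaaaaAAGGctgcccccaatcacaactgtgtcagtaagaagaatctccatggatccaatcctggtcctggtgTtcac
None of the 6 motifs was found in either window, TATAAA included.

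The 6 Cyp2c members that did not pass were Cyp2c29, Cyp2c55 (log2 fold change 0.32), Cyp2c65 (-0.23), Cyp2c66 (-0.35), Cyp2c67 (-0.09) and Cyp2c70 (-0.28). Cyp2c70, the mouse enzyme that makes muricholic bile acids, read 11.50 to 12.03 on the Phf2 arrays and 11.96 to 12.09 on the GFP arrays, with an adjusted p of 0.0980 from limma. In the order of the RefSeq annotation, Cyp2c39 and Cyp2c38, the 2 that rose, are neighbours apart from a pseudogene, with Cyp2c29 before and Cyp2c67 behind them. The second start site of Cyp2c39, however, lies between those of Cyp2c38 and Cyp2c67. Of the 4 members from Cyp2c68 to Cyp2c50, each was lower, and Cyp2c40 and Cyp2c69, which lie among them, have no row of their own. Cyp2c23 lies at the end of the order, behind Cyp2c70. A row shared by Cyp2c40, Cyp2c67, Cyp2c68 and Cyp2c69 had a log2 fold change of -0.20 (SE 0.09, adjusted p = 0.317 from limma over all rows).

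**Figure D2:**
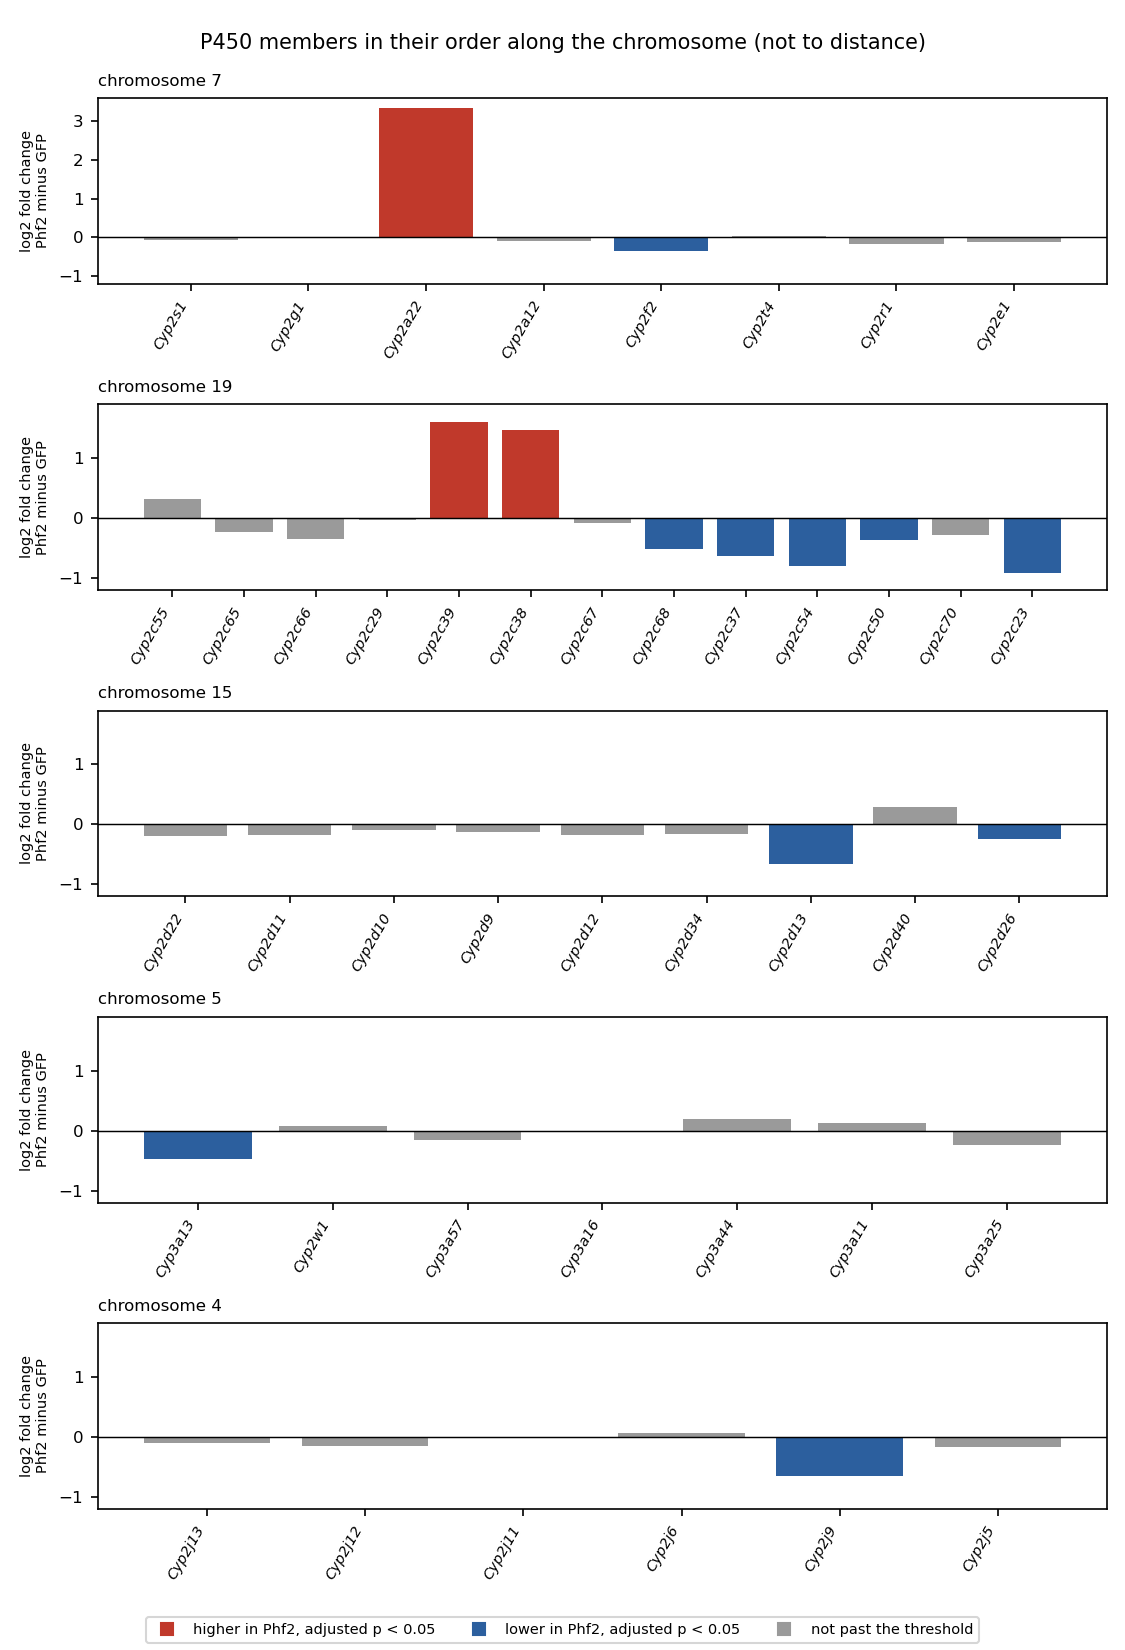
Log2 fold change (Phf2 minus GFP, vertical axes) of the members on chromosomes 7, 19, 15, 5 and 4, in their order along the chromosome and not to distance. Red bars are higher and blue bars lower in Phf2 livers at an adjusted p under 0.05. Cyp2c39 and Cyp2c38 stand side by side on chromosome 19, and Cyp2a22 is the single red bar on chromosome 7, where Cyp2f2 is blue.

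Cyp2d genes, whose human relative CYP2D6 clears many drugs, held 2 calls. Of the 9 members, Cyp2d13 and Cyp2d26 were lower and 7 did not pass, and the log2 fold changes ran from -0.66 to 0.29 with a median of -0.18. Cyp2d13, the transcribed pseudogene, read 8.53, 7.82, 8.05, 7.68 and 8.49 on the Phf2 arrays and 8.67, 8.79, 9.03, 8.75 and 8.65 on the GFP arrays. It changed by -0.66 (SE 0.16, adjusted p = 0.0183 from limma), and Phf2 replicates 1 and 5 were again nearest to the GFP arrays. Without Phf2 replicate 2 its adjusted p was 0.0527. Cyp2d26 read 11.50, 11.55, 11.55, 11.54 and 11.67 on the Phf2 arrays and 11.74, 11.77, 11.86, 11.77 and 11.89 on the GFP arrays. The change was small, -0.24 (SE 0.06, adjusted p = 0.0197 from limma), but the groups did not overlap, and the call was lost without Phf2 replicate 2 (adjusted p = 0.0507) or 4 (0.0537). Cyp2d9, a male-predominant testosterone hydroxylase, read 9.46, 9.57, 9.51, 9.38 and 9.74 on the Phf2 arrays and 9.62, 9.66, 9.62, 9.67 and 9.73 on the GFP arrays. Its groups overlapped (log2 fold change -0.13, 95% interval -0.28 to 0.03, adjusted p = 0.33 from limma). Just outside the threshold lay Cyp2d22, with -0.20 (adjusted p = 0.0530) and no overlap, and Cyp2d40, with 0.29 (adjusted p = 0.0570), and just inside it lay Cyp1b1 and Cyp2c68. The others, Cyp2d10, Cyp2d11, Cyp2d12 and Cyp2d34, had log2 fold changes of -0.18 to -0.09.

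Among the subfamilies with 1 member, Cyp1b (Cyp1b1, given above) and Cyp2f were called. Cyp2f2, which oxidizes naphthalene, read 11.88, 11.60, 11.56, 11.59 and 11.88 on the Phf2 arrays and 12.15, 12.02, 11.98, 12.06 and 12.09 on the GFP arrays. Every Phf2 array was lower, with a log2 fold change of -0.35 (SE 0.08, adjusted p = 0.0132 from limma). Cyp2e1, the enzyme that oxidizes ethanol and paracetamol in the cells around the central vein, read 12.23, 12.30, 12.30, 12.22 and 12.44 on the Phf2 arrays and 12.42, 12.31, 12.43, 12.52 and 12.48 on the GFP arrays. Its groups overlapped, and its log2 fold change of -0.13 had a 95% interval of -0.27 to 0.01 (adjusted p = 0.247 from limma). Cyp2r1, the liver hydroxylase of vitamin D, had a log2 fold change of -0.18 (adjusted p = 0.313), and Cyp2u1, a fatty acid hydroxylase, one of -0.28 (adjusted p = 0.213). The rows of Cyp2ab1, Cyp2g1, Cyp2s1, Cyp2t4 and Cyp2w1 were dim, and their log2 fold changes ran from -0.16 to 0.08 with no call.

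Cyp2j enzymes epoxidize arachidonic acid, and 1 of the 6 members was lower. Cyp2j9 read 6.26, 5.92, 6.39, 5.65 and 5.80 on the Phf2 arrays and 6.63, 6.96, 6.72, 6.49 and 6.43 on the GFP arrays. The groups came close without overlap, with a log2 fold change of -0.65 (SE 0.14, adjusted p = 0.0132 from limma). Cyp2j5, an epoxygenase of liver and kidney, had one of -0.17 (adjusted p = 0.257), and Cyp2j6 one of 0.07 (adjusted p = 0.770). Cyp2j11, Cyp2j12 and Cyp2j13 were dim, with log2 fold changes of -0.16 to -0.01.

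Cyp3a enzymes carry much of the drug metabolism of liver, and here too 1 of 6 members was lower. Cyp3a13, which lies apart from the other Cyp3a genes on chromosome 5, read 9.81, 9.45, 9.23, 9.29 and 9.75 on the Phf2 arrays and 9.91, 9.82, 10.12, 10.10 and 9.90 on the GFP arrays. It changed by -0.47 (SE 0.12, adjusted p = 0.0251 from limma), and Phf2 replicate 1 (9.81) lay just under the lowest GFP array (9.82). Cyp3a11, the PXR-inducible main Cyp3a enzyme of mouse liver, read 12.11, 11.93, 11.93, 11.67 and 12.15 on the Phf2 arrays and 11.80, 11.55, 11.90, 12.00 and 11.92 on the GFP arrays. The groups overlapped, with a log2 fold change of 0.12 (95% interval -0.11 to 0.35, adjusted p = 0.574 from limma). Cyp3a25 (-0.24), Cyp3a44 (0.20), Cyp3a16 (-0.02) and Cyp3a57 (-0.15) did not pass either. Nor did the 3 rows that Cyp3a genes share. The row of Cyp3a25, Cyp3a57 and Cyp3a59 had a log2 fold change of -0.36 (adjusted p = 0.448), that of Cyp3a41a, Cyp3a41b and Cyp3a44 one of 0.25 (adjusted p = 0.286), and the one that adds Cyp3a11 to these 3 genes one of 0.23 (adjusted p = 0.306, limma over all rows).

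**Figure D3:**
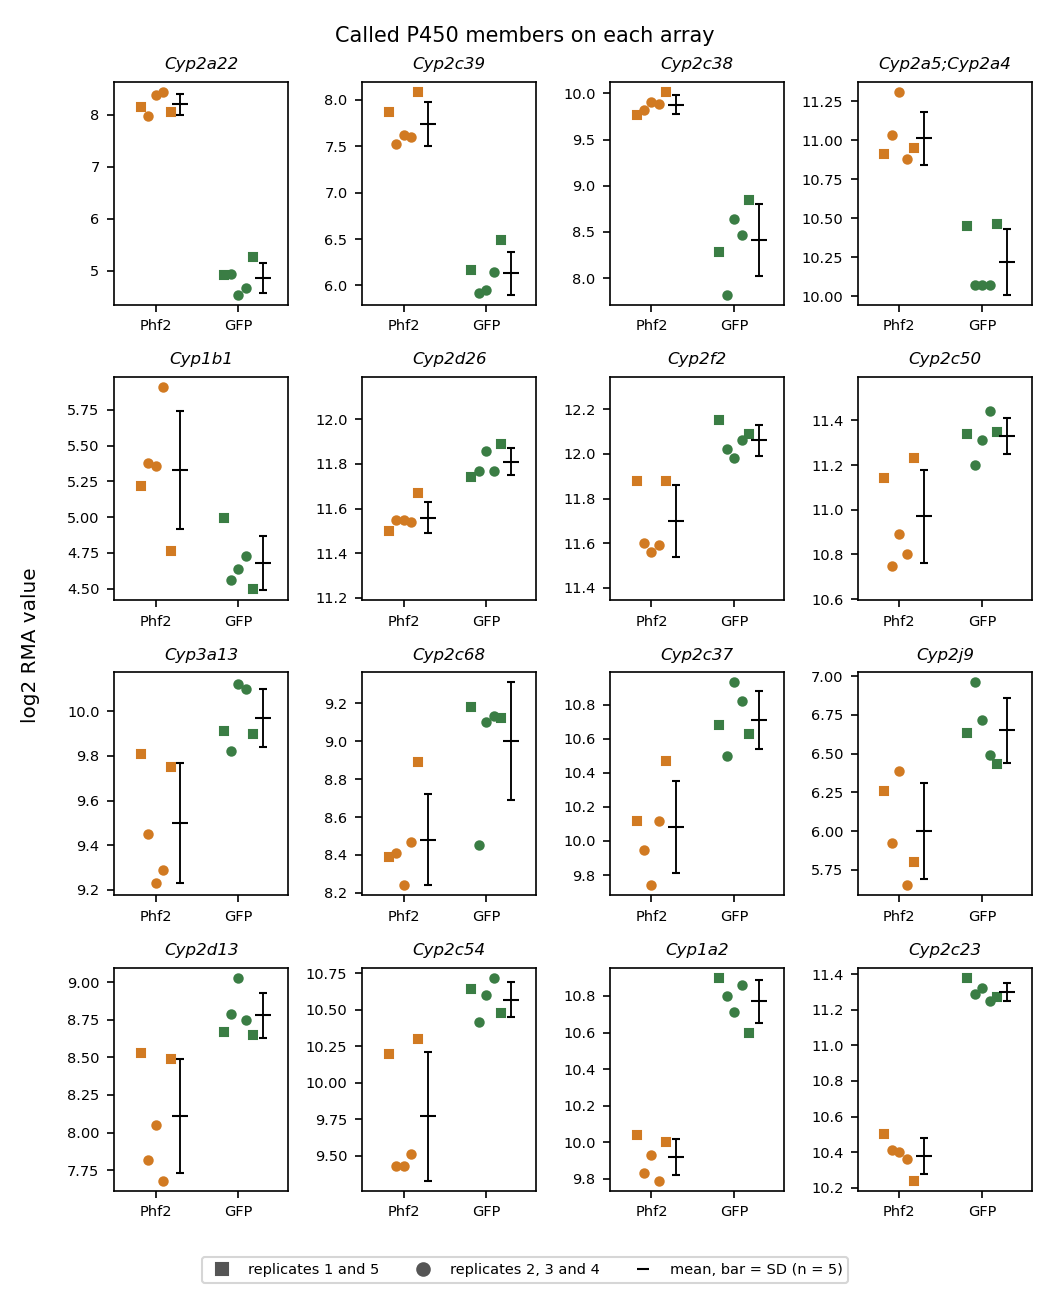
Log2 RMA value (vertical axes, which differ between panels) of the 15 called members and of the row shared by Cyp2a5 and Cyp2a4, with the 5 Phf2 arrays on the left and the 5 GFP arrays on the right of each panel, and the mean with its SD beside them. Squares are replicates 1 and 5, which in the Phf2 group lie nearest to GFP for 7 of the 11 lower members.

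The tests behind the calls differed in how much they rested on single arrays. Over 21 other settings, Cyp2a22, Cyp2c39, Cyp2c38, Cyp2c23 and Cyp1a2 were called under each, and the other 10 called members lost the call under 1 or more. The call of Cyp2c68 was lost without any of 8 arrays, at adjusted p-values of 0.0929, 0.110, 0.113 and 0.101 without Phf2 replicates 1, 2, 3 and 4 and of 0.112, 0.0904, 0.106 and 0.101 without GFP replicates 1, 3, 4 and 5. That of Cyp2c50 was lost without Phf2 replicates 2 (0.0812), 3 (0.0721) or 4 (0.0853) or GFP replicates 1 (0.0642), 3 (0.0511), 4 (0.0741) or 5 (0.0621). That of Cyp3a13 was lost without Phf2 replicates 2 (0.0634), 3 (0.0580) or 4 (0.0705) or GFP replicates 3 (0.0553) or 4 (0.0617). The sign of the log2 fold change was the same for each of the 15 under each setting. The two-sided exact permutation test gave p = 0.00794, the smallest that 5 against 5 arrays allow, for each of the 13 members without overlap. Groups without overlap always give this value, so it adds nothing to the lack of overlap. Cyp2d22, which was not called, is among the 13.

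The Phf2 arrays did not all lie equally far from the GFP arrays. For 7 of the 11 lower members (Cyp2d13, Cyp2c37, Cyp2c50, Cyp2c54, Cyp3a13, Cyp2f2 and Cyp1a2) Phf2 replicates 1 and 5 were the 2 arrays nearest to GFP. The same held for 51.5% of all 846 lower genes and 47.3% of all 1083 higher ones, and for 1 of the 4 higher members (Cyp1b1). In the same 2 arrays the mean of the T and NK cell markers was 6.11 and 6.01, the lowest of the Phf2 group, and that of the acinar markers was 6.23 and 6.44, whereas Phf2 replicates 2, 3 and 4 had acinar means of 10.8, 10.1 and 8.92. On GFP replicate 1, with the highest acinar mean of all (12.3), 6 of the 11 lower members read inside the range of the other GFP arrays, 4 above it (Cyp2c23, Cyp1a2, Cyp2c68 and Cyp2f2) and 1 below it (Cyp2d26). Without Phf2 replicates 1 and 5 there were 4 higher and 14 lower members, with Cyp2c70, Cyp2j5 and Cyp3a25 added to the 11, in a fit that called 1364 higher and 944 lower of all genes. Without the 3 arrays whose acinar mean was above 10, 3 higher and 3 lower members were called (Cyp2a22, Cyp2c39 and Cyp2c38 higher, Cyp1a2, Cyp2c23 and Cyp2j9 lower) in a fit that called 365 higher and 230 lower of all genes. The values of the 8 lower members whose calls were lost there stayed below 0, at -0.57 for Cyp2d13, -0.55 for Cyp2c54, -0.48 for Cyp2c37, -0.37 for Cyp2c68 and Cyp3a13, -0.27 for Cyp2c50 and -0.25 for Cyp2d26 and Cyp2f2. The part of these cells in the lower values was not tested.

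**Figure D4:**
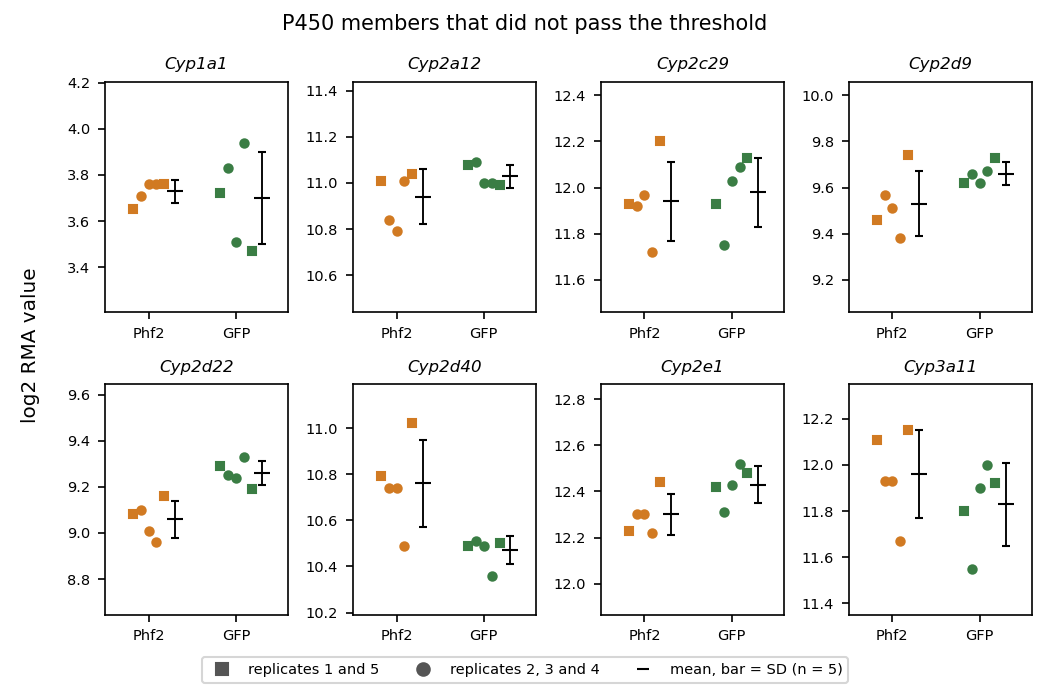
Log2 RMA value (vertical axes, which differ between panels) of 8 members that did not pass the threshold, with the 5 Phf2 arrays left and the 5 GFP arrays right in each panel and the mean with its SD beside them. The groups overlap for each of them except Cyp2d22, whose Phf2 arrays (8.96 to 9.16) all lie below the GFP arrays (9.19 to 9.33).

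The genes that serve or control P450s were described from lists of their own. Beside these counts, 5.43% of all genes were called higher and 4.24% lower, with a median log2 fold change of -0.0149. Of 5 electron donors and membrane partners measured, Cyb5r3, the reductase of cytochrome b5, was called, as higher (log2 fold change 0.29, SE 0.07, adjusted p = 0.0130 from limma), and Cyb5a, Cyb5b, Pgrmc1 and Pgrmc2 did not pass. P450 reductase is not analysed here. Of 16 receptors and factors that control P450 genes, 5 were lower, none was higher and 11 did not pass, and the median log2 fold change was -0.13. Rxra, the partner with which CAR, PXR and other nuclear receptors bind DNA, read 7.92, 7.83, 7.85, 7.84 and 7.90 on the Phf2 arrays and 8.53, 8.37, 8.56, 8.43 and 8.61 on the GFP arrays. It was lower on every Phf2 array, with a log2 fold change of -0.63 (SE 0.06, adjusted p = 5.69e-05 from limma). Nr1i3, which encodes CAR, had one of -0.49 (SE 0.11, adjusted p = 0.0120), and the liver factors Foxa1, Onecut1 and Cebpa had -0.46, -1.26 and -0.32 (adjusted p = 0.0108, 0.0134 and 0.0497). The call of Cebpa was lost without any of 8 arrays (adjusted p of 0.0538 to 0.120), the 2 exceptions being Phf2 replicate 5 and GFP replicate 3. Ahr (-0.13), Nr1i2, which encodes PXR (-0.09), and Hnf4a (-0.09) did not pass.

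Of 4 targets of AhR outside the P450s, 2 were higher and none was lower, beside 5.43% and 4.24% of all genes. Tiparp, a feedback inhibitor of AhR, rose by 0.91 on the log2 scale (SE 0.13, adjusted p = 0.000821), and Nqo1, a quinone reductase that Nrf2 controls as well, rose by 1.32 (SE 0.20, adjusted p = 0.00128 from limma). Ahrr (-0.12) and Aldh3a1 (0.56) did not pass. The xenobiotic core, GCGTG, occurred in 23.3% of the 43 member windows and in 32.4% of all windows.

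Of 17 P450s of other families with a row of their own, 1 was higher, 7 were lower and 9 did not pass, with a median log2 fold change of -0.40. Among all genes the shares were 5.43% higher and 4.24% lower, and the median was -0.0149. Cyp17a1, which makes precursors of sex steroids, rose by 2.16 (SE 0.25, adjusted p = 0.000198 from limma). The lower ones were the bile acid enzymes Cyp7b1 (-2.39, adjusted p = 7.55e-05), Cyp7a1 (-1.81, adjusted p = 0.00580) and Cyp27a1 (-0.66, adjusted p = 0.000445), and the fatty acid hydroxylases Cyp4f14 (-0.88), Cyp4f15 (-0.68), Cyp4f13 (-0.61) and Cyp4a12b (-0.58, adjusted p = 0.0260). For Cyp4a12b the call was lost without Phf2 replicates 2 (0.0567) or 3 (0.0507) or GFP replicates 1 (0.0568), 4 (0.0588) or 5 (0.0635).

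**Figure D5:**
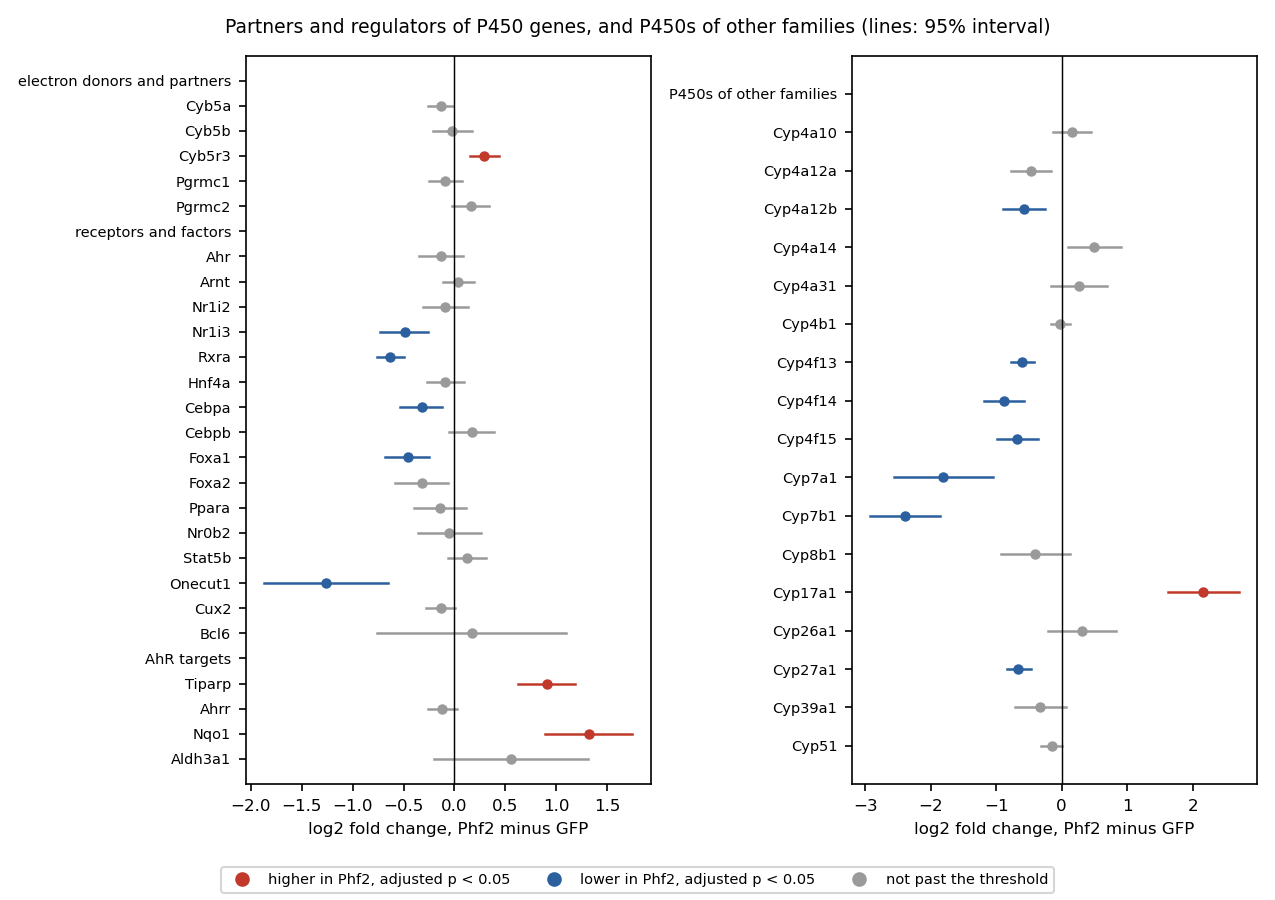
Log2 fold change (Phf2 minus GFP, horizontal axes) with the 95% interval from limma for partners and regulators of P450 genes on the left and P450s of other families on the right. Red is higher and blue lower at an adjusted p under 0.05, and Cyp17a1 at 2.16 is the single red point among the other P450 families.

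Position in the lobule and sex, along which P450 genes differ, were looked at with short lists. For comparison, 5.43% of all genes were called higher and 4.24% lower. Of 8 pericentral genes that are no members, Slc1a2 (-0.75, adjusted p = 0.000483) and Rgn (-0.28, adjusted p = 0.0183 from limma) were lower and 6 did not pass, Glul and Axin2 among them. Of 5 periportal genes, Hal (-1.59, adjusted p = 0.00224), Cdh1 (-0.49, adjusted p = 0.00428) and Arg1 (-0.54, adjusted p = 0.0419 from limma) were lower and 2 did not pass. The call of Arg1 was lost without any of 7 arrays, Phf2 replicates 2, 3 and 4 and GFP replicates 1, 2, 4 and 5 (adjusted p of 0.0744 to 0.106). Of 7 P450 genes listed as higher in female mice, 2 (Cyp3a16 and Cyp3a44) had a row of their own and neither passed, and the row that Cyp2a4, also on the list, shares with Cyp2a5 was the higher one given above. The shared rows of the rest of that list did not pass. The row with Cyp2c40 and Cyp2c69 had a log2 fold change of -0.20 (adjusted p = 0.317 from limma over all rows). Those with Cyp3a41a and Cyp3a41b had 0.25 and 0.23 (adjusted p = 0.286 and 0.306 from limma over all rows). Of the 3 on the male list, Cyp2f2 was lower, and Cyp2d9 and Cyp2u1 did not pass. Both lists held genes of families 1 to 3 only, and P450s of other families were not sorted by sex. Of the called members only Cyp2f2 was on either list. Cyp2a22, Cyp2c39 and Cyp2c38, the members that rose most, were on neither, so the lists do not show whether these differ by sex. Without the 3 arrays with high acinar markers, the calls of Nr1i3 (adjusted p = 0.0723), Foxa1 (0.0698), Onecut1 (0.179), Cebpa (0.322), Cyb5r3 (0.0836), Cyp7a1 (0.0838), Cyp4f15 (0.131), Cyp4a12b (0.192), Cdh1 (0.0850), Arg1 (0.353) and Rgn (0.168) were lost in limma, with their signs kept, while the other context genes named here as called held theirs.

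Promoter windows were used for 40 of the 48 members, 43 windows in all. Any window listed for a member but placed on a chromosome without members was left out of the 43. No window was left out of the 32851 used for comparison. TATAAA was present in 51.2% of them and in 13.6% of all 32851 windows, and CAAAGTCCA, a direct repeat of the type bound by the liver factor HNF4, in 14% and 0.475%. TGANNNNGC was present in 44.2% and 41.3%. CACGTG, the E-box, was present in 2.33% of the member windows, in that of Cyp2j6 alone, and in 7.15% of all, and TTCNNNGAA, the STAT5 site of the growth hormone response, in 4.65% (Cyp2j11 and Cyp2j12) and 8.3%. The HNF4 letters were found for Cyp2c65, Cyp2c67, Cyp2c68, Cyp2c70, Cyp3a11 and Cyp3a16, of which Cyp2c68 was called. Related genes share sequence here, so that the windows do not count as independent.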

How the data were processed

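Liver RNA of 5 Phf2 and 5 GFP mice was measured on 1 array per mouse, and samples were grouped by their titles. The authors normalized the arrays with RMA (background correction, quantile normalization, summary of probes) and deposited log2 values for 35556 rows. RMA and Partek are named in the submitters' processing notes, without version or genome build. A human array and an RNeasy kit appear in the methods, whereas the labels name another RNA kit and the row numbers belong to a mouse Gene ST platform. RMA equalizes the arrays, so that values are relative to the rest of each array, and related P450 genes may share signal.

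Rows were named through the platform annotation (21789 with 1 symbol, 1621 with several, 12146 with none), and a gene was read by its row with the highest mean. Groups were compared with limma 3.58.1 (lmFit and eBayes, no covariate) in R 4.3.3, adjusted over 19938 genes by the Benjamini-Hochberg method at 0.05. Rows with several symbols were tested in a fit over all rows. Single values also had a two-sided exact permutation test. The study ran a per-gene analysis of variance, tried here as the methods' t-test. Other alternatives were a filter on dim rows, array weights, an intensity trend with robust moderation, quantile normalization, median centring, all rows, the mean of a gene's rows, a replicate block, the study's thresholds (1.5-fold and an unadjusted p of 0.05) and leaving out each array. Leaving out Phf2 replicates 1 and 5, or the arrays with high acinar markers, was added after the data were seen. The labels call the arrays biological replicates, and their number limits the precision. The pipeline was tested on simulated data.

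The members and lists were chosen with earlier results of these data known. Values on each array are given for, per subfamily, the called members that rose most and fell most (2 of each at most) and for Cyp1a1, Cyp1a2, Cyp2a5, Cyp2c29, Cyp2d9, Cyp2e1, Cyp2f2 and Cyp3a11, and other members by log2 fold change. Promoters came from RefSeq (GRCm38.p6, 250 bases before to 50 after the start). Coordinates are those of that table, not of the array. Protein sequences were not used here. Further lists of cell type markers gave 2 higher and 3 lower of 8 for Kupffer cells and macrophages, 1 higher of 5 for sinusoidal endothelium, and no call among 3 for B cells, 6 for stellate cells and 4 for bile duct cells. The shares over all genes were 5.43% higher and 4.24% lower.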

Additional observations from a re-analysis of the deposited data

Results flagged for a closer look

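Among 106 groups of 5 arrays (48 members and 5 shared rows in both groups), 9 held 1 array farther from the others than Dixon's test allows at the 95% level, where chance gives about 1 in 20. In the Phf2 group this was Cyp2d10 on replicate 5 (10.72, against 10.34 to 10.41 on the others). The other 8 lay in the GFP group, and 5 of them on replicate 2. There Cyp2c67 read 10.14 (others 10.71 to 10.77), Cyp2c68 read 8.45 (others 9.10 to 9.18), Cyp2d11 read 4.65 (others 3.95 to 4.09), the row of Cyp3a41a, Cyp3a41b and Cyp3a44 read 7.70 (others 8.09 to 8.22), and the row that adds Cyp3a11 read 7.39 (others 7.73 to 7.86). GFP replicate 4 was low for Cyp2d40 (10.36, others 10.49 to 10.51) and high for the dim Cyp2c65 (4.40, others 3.30 to 3.44). GFP replicate 5 was high for Cyp2r1 (7.79, others 7.44 to 7.49). Without GFP replicate 2 the log2 fold change of Cyp2c68 was -0.65 (adjusted p = 0.00517 from limma). The sequences of neighbouring Cyp2c and Cyp3a genes are alike, and signal may be shared between them.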

How the results depend on the processing

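Of the 4 higher and 11 lower members, the count of higher ones stayed between 3 and 5 under every alternative, and that of lower ones ran from 3 to 14. The lower count was 6 with the methods' t-test (3 higher), 6 with the study's thresholds, and 3 without the arrays with high acinar markers. Leaving out 1 array gave 3 to 4 higher and 6 to 13 lower members, with 6 without Phf2 replicate 2 and 7 without Phf2 replicate 4. The methods' t-test added Cyp2d22 and lost Cyp1b1, Cyp2c50, Cyp2c54, Cyp2c68, Cyp2d13, Cyp2j9 and Cyp3a13 (adjusted p of 0.0582 to 0.137), and over all rows Cyp1b1, Cyp2c50, Cyp2c68 and Cyp3a13 were lost. With the methods' t-test 694 genes in all were higher and 616 lower, and with the study's thresholds 475 and 231. Median centring gave 4 higher and 12 lower members, and a further quantile normalization 5 and 11. Over all genes these gave 829 higher and 959 lower, and 1024 and 1066, against 1083 and 846 with the values as deposited. For members not called, the sign turned for Cyp2c29 without Phf2 replicate 4 (0.02) and for Cyp1a1 without GFP replicate 5 (-0.03) or 3 (-0.02), where leaving out 1 array gave -0.1 to 0.02 for Cyp2c29 and -0.03 to 0.09 for Cyp1a1. Replicate numbers did not pair the arrays. The deviations of same-numbered arrays correlated at -0.291 to -0.0421, and no array correlated best with its own number. With the replicate block 4 members were higher and 9 lower, and Cyp2d26 (adjusted p = 0.0502) and Cyp3a13 (0.0687) lost their calls. Of the context genes, Rgn (0.0690) lost its call under the block, Cyb5r3 (0.0556) without Phf2 replicates 1 and 5, and Nr1i3 (0.0506), Onecut1 (0.0723), Cyp4f15 (0.0557), Cyp4a12b (0.0949), Cebpa (0.109) and Arg1 (0.126) with the methods' t-test. Without Phf2 replicates 1 and 5 the row of Cyp3a25, Cyp3a57 and Cyp3a59 passed (-0.68, adjusted p = 0.0482). The causes were not tested. Dim rows limit what can be seen of 17 members.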
